A study of Mus musculus with 2 samples.

Results

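The genes described here are the members of the AP-1 family measured in epidermal lymphocytes, namely Fos, Fosb, Fosl1, Fosl2, Jun, Junb, Jund, Batf, Atf3 and Maff. They were listed by name, and are 10 of the 31053 genes in the count tables, of which 18777 had at least 1 unique molecular identifier (UMI, which tags a single captured mRNA molecule) in a kept cell. All 10 had UMIs. AP-1 is a dimer of basic leucine zipper proteins. FOS proteins cannot pair with themselves and bind DNA with a JUN partner, whereas JUN proteins also pair with each other, and BATF, ATF3 and the small MAF protein MAFF join the same network. Fos, Fosb, Jun and Junb are immediate early genes, which are transcribed within minutes of signals through receptors and MAP kinases and also after stress or handling of tissue, and AP-1 acts with NFAT downstream of the T cell receptor.

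Dendritic epidermal T cells (DETCs) are the gamma-delta T cells of mouse epidermis. Skint1 is a protein on which the development of their precursors in the thymus depends, and keratinocytes express it as well. Ear epidermis of 8 week old female wild-type FVB/NJ mice was dissociated with trypsin 7 d after intradermal injection of either isotype control antibody or Skint1 antibody, with no other allele or agent named. Viable lymphocytes, positive for CD45 and negative for EpCAM and MHC-II, were sorted and made into 10x 3′ libraries. The comparison asks how blocking Skint1 in adult skin alters resident lymphocytes. Values are given throughout in the order isotype, then Skint1 antibody. There was 1 library per treatment (n = 1, where n counts mice by the study's convention), so treatment, mouse and library cannot be told apart.

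Cells were barcodes with 500 to 2500 detected genes and no more than 12% of UMIs from mitochondrial genes, 4242 and 5961 in number, with medians of 4047 and 3604 UMIs. Only 5 cell barcodes occurred in both libraries. The 3 classes of cells were cut from UMIs of genes outside the family. DETCs (Trdc at 3 or more, CD3 genes at 3 or more, and no Trac, Cd4, Cd8a or Cd8b1) numbered 3544 and 4945, with 14659876 and 18706191 UMIs. Of the DETC markers that the rule did not use, Fcer1g stood at 2372 and 2527 CPM (counts per 1000000 UMIs of the class), against 366 and 509 CPM in the alpha-beta T class. Tcrg-C1 stood at 1029 and 1096 CPM against 81.2 and 140 CPM, and Klrd1 at 647 and 615 CPM against 164 and 185 CPM. Tcrg-V5 was at 59 and 62.6 CPM against 0 and 3.59 CPM. Gzmb did not separate these classes in the isotype library, at 132 CPM (126 to 138) against 121 CPM (98.2 to 148). In the Skint1 antibody library Gzmb was at 80.6 against 28.7 CPM. The alpha-beta T class (Trac at 1 or more, no Trdv4) numbered 197 and 213 cells, and of the 5 alpha-beta T markers that neither rule used, Cd28, Cd5 and Cd6 were each between 81.3 and 171 CPM in it and at most 2.7 CPM in DETCs. The T cell receptor beta constant genes did not mark it: Trbc1 stood at 1115 and 935 CPM against 1491 and 1250 CPM in DETCs, and Trbc2 at 1215 and 1119 CPM against 1097 and 979 CPM.

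Neither small class was pure. Of the alpha-beta T class, 18 and 44 cells had 3 or more Trdc UMIs. The ILC rule (Il7r, Rora and Gata3 summing to 3 or more, CD3 genes at 2 or less, no Trdv4) gave 82 and 139 cells. Of the ILC markers that the rule did not use, Icos (172 and 167 CPM against 12.1 and 7.59 CPM in DETCs), Kit (83.6 and 111 against 15.4 and 8.55 CPM) and Il2ra (41.8 and 60.7 against 4.43 and 2.25 CPM) were higher there than in DETCs. Areg was lower, at 230 and 325 CPM against 593 and 557 CPM, and Il1rl1 had 0 and 3 UMIs. Markers of other cell types were present as well: 5 keratin genes summed to 483 and 3852 CPM, against 16.8 and 28.4 CPM in DETCs. Of 6 Langerhans or myeloid markers, 6 and 5 had UMIs there, and they summed to 1298 and 2000 CPM, where the sort was set against EpCAM and MHC-II. This class is therefore called the CD3-low class, and its levels, class contrasts and treatment ratios are given also without cells that held a keratin UMI, a step chosen after seeing the data that left 75 and 115 cells. The alpha-beta T and CD3-low classes shared 9 and 14 cells.

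The stretch upstream of Fos and Jun is shown because these genes give the FOS and JUN groups their names and were correlated across cells. The capitals mark a CRE core (TGACGT) and a TATA motif (TATAAA) in Fos and an ATF/AP-1 octamer (TGACNTCA) in Jun, in the 150 bases before the RefSeq start on build GRCm38.p6, read 5′ to 3′ on the strand of the gene.
Fos, plus strand of chr12:85473740-85473889: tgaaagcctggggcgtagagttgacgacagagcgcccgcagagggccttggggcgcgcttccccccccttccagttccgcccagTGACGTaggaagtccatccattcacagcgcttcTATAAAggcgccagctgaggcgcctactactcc
Jun, minus strand of chr4:95052223-95052372: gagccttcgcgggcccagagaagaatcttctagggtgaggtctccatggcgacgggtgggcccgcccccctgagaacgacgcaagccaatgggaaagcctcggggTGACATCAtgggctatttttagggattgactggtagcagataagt
Both strands of the 250 bases upstream of each start were searched for these motifs, for the AP-1 site TGANTCA and for the CArG box bound by SRF. The octamer and the CRE core overlap in one of their forms. Among 32536 distinct upstream windows, 6.5% held the CRE core, 7.43% the octamer, 6.73% the AP-1 site, 12.3% the TATA motif and 1.48% a CArG box. The Fos CRE core lay 66 to 61 bases before the start and the Jun octamer 45 to 38 bases before it. The CRE core was also present upstream of Batf and Atf3 and of 1 of the 3 starts listed for Maff, the octamer upstream of 2 of these, and no motif of the list was present in the windows of Fosb, Fosl2, Junb and Jund. The RefSeq table used here held no window for Fosl1. These matches describe letters in a window and no binding was measured.

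On GRCm38 (GENCODE vM21), Fos lies at chr12:85473890-85477273, Batf on the same chromosome at chr12:85686669-85709087, Fosb at chr7:19302696-19310051, Fosl1 at chr19:5447547-5455946 and Fosl2 at chr5:32135801-32157842. Jun lies at chr4:95049034-95052222, Junb at chr8:84974484-84978718 and Jund at chr8:70698949-70700616. Atf3 lies at chr1:191170296-191218039 and Maff at chr15:79346621-79359076. Each of the 10 is annotated as protein coding. The counts are of 3′ ends, so each UMI stands for 1 transcript end whatever the transcript length, and an order of levels between genes is an order of captured ends, not divided by length.

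Fos, which encodes the FOS protein made first after most stimuli, was the member with the most captured ends in DETCs. Its level was 3766 CPM (95% interval 3734 to 3797, from 55206 UMIs) and 3699 CPM (3672 to 3727). Jund, which encodes the JUN protein present in resting cells, followed at 1554 and 1587 CPM, then Junb, a JUN protein that is a weaker activator than JUN on many promoters, at 1315 and 1329 CPM, and Jun at 925 and 785 CPM. The remaining FOS-type genes were lower. Fosb stood at 310 and 270 CPM and Fosl2 at 152 and 136 CPM. Fosl1 was nearly silent, with 13 UMIs (0.887 CPM) and 24 UMIs (1.28 CPM), and with 0 UMIs in the alpha-beta T class of either library, which allows up to 3.75 and 3.59 CPM. Of the partners, Atf3, a stress-induced repressor, stood at 209 and 142 CPM, Maff at 92.9 and 86.5 CPM, and Batf, which lacks a transactivation domain, at 41.6 and 37.1 CPM. In the isotype library the intervals of neighbours in this order did not overlap, and in the Skint1 antibody library the only overlap was between Atf3 (137 to 147 CPM) and Fosl2 (130 to 141 CPM). All intervals here cover counting error only. If every keratin UMI in DETCs came from free RNA, free RNA made up at most 1.79% and 2.14% of DETC UMIs, which bounds its part at 33 and 46 CPM of Fos and at 3.22 and 4.41 CPM of Atf3.

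**Figure D1:**
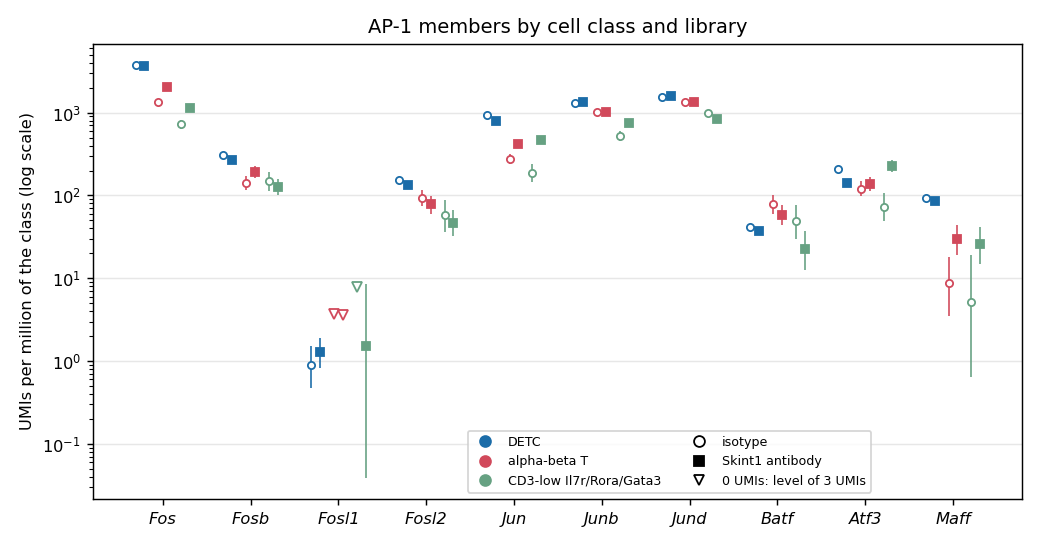
Level of the 10 members in each class and library, as CPM on a log axis. Open circles are the isotype library and filled squares the Skint1 antibody library; colours give the class, bars the exact Poisson 95% interval, and triangles the level of 3 UMIs where none was counted. The DETC points of Fos (3766 and 3699 CPM), Jun and Maff lie above those of both other classes, and those of Batf lie below the alpha-beta T points.

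Next, DETCs were compared with the other lymphocytes of the same libraries, on UMIs summed per class and library with library as a block (edgeR, 6 sums, 7716 genes tested). Of the 9 members tested, 5 were higher in DETCs than in the alpha-beta T class and 1 was lower at a false discovery rate of 5%, against 16.5% of all genes higher and 15.9% lower. Scaling by library totals in place of TMM turned that background into 20.8% higher and 12.7% lower, and the median of all genes from 0.02 to 0.15 on the log2 scale, with every member that had passed still past the threshold. The median over the 9 members was 0.62. The p-values measure the spread between sums of 2 libraries that also differ in treatment. The fit held all 6 sums, so the CD3-low class also entered the estimate of spread behind the p-values against the alpha-beta T class.

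Among the FOS-type genes, Fos in the alpha-beta T class stood at 1327 and 2067 CPM, both below its DETC levels, a log2 difference of 1.05 (edgeR adjusted p = 1.5e-05). The simple log2 ratio of CPM was 1.5 and 0.84 within each library. Fosb stood at 141 and 192 CPM in alpha-beta T cells and was higher in DETCs by 0.66 (edgeR adjusted p = 0.0025), with ratios of 1.13 and 0.49 within each library. Fosl2 stood at 93.7 and 77.7 CPM there, a log2 difference of 0.62 (edgeR adjusted p = 0.0029). Jun differed most among the JUN-type genes, with 276 and 412 CPM in alpha-beta T cells and a log2 difference of 1.23 (edgeR adjusted p = 0.00055) and ratios of 1.74 and 0.93 within each library. Junb and Jund did not pass. Junb stood at 1023 and 1025 CPM (log2 difference 0.24, edgeR adjusted p = 0.10) and Jund at 1345 and 1356 CPM (0.09, edgeR adjusted p = 0.37). Junb passed under 6 of the alternatives, with log2 differences of 0.27 to 0.46, among them alpha-beta T cells without a Trdc UMI.

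The partners split. Maff, a small MAF protein that has no transactivation domain of its own, had 7 UMIs (8.74 CPM) and 25 UMIs (29.9 CPM) in alpha-beta T cells, and was 2.08 higher in DETCs on the log2 scale (edgeR adjusted p = 0.00022). Within each library the ratio was 3.41 and 1.53. Batf, which pairs with JUN proteins and binds with IRF4 in activated T cells, was the single member lower in DETCs. It stood at 78.7 and 58.6 CPM in alpha-beta T cells, a log2 difference of -0.92 (edgeR adjusted p = 0.0013). Irf4 was also lower in DETCs (log2 difference -1.77, edgeR adjusted p = 6.6e-05). Atf3 stood at 121 and 139 CPM in alpha-beta T cells and did not pass (0.31, edgeR adjusted p = 0.47).

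Against the CD3-low class, 7 of 9 members were higher in DETCs and none was lower, where 17.5% of all genes were higher and 17% lower (21.7% and 13.5% when scaled by library totals). Without an adjustment, no member was lower at p under 0.05 in edgeR, and DESeq2 called 0 lower. The members higher in DETCs were Fos (log2 difference 1.89), Fosb (0.95), Fosl2 (1.32), Jun (1.23), Junb (0.89), Jund (0.64) and Maff (2.18), with edgeR adjusted p-values from 6.6e-08 to 0.00082. The library moved some of these values, since within each library the ratio was 2.3 and 0.75 for Jun, 1.34 and 0.82 for Junb, and 4.15 and 1.75 for Maff. Maff rested there on 2 and 17 UMIs. Batf (0.08) and Atf3 (-0.05) did not pass. Atf3 in the CD3-low class stood at 73.1 and 227 CPM, one below and one above the DETC level. Without cells that held a keratin UMI these became 74.5 and 78.4 CPM, and Atf3 was then higher in DETCs by 1.02 (edgeR adjusted p = 0.0017). When the upper limit on genes was lifted Jun was lower in DETCs (log2 difference -1.08, edgeR adjusted p = 1.5e-05), as was Atf3 (-2.77, edgeR adjusted p = 8.4e-09), Fosb stood at -0.15 and Junb at 0.10 without passing, and the 5 keratin genes of the CD3-low class then summed to 16765 and 18673 CPM. With at most 5% mitochondrial UMIs, Fos, Fosl2, Jund and Maff were the members called higher, Atf3 was called lower (-1.74), and Jun (-0.39), Fosb (0.21) and Junb (0.26) did not pass, with keratin sums of 0 and 11053 CPM. With narrower gates Fosb (0.66) and Jun (0.56) did not pass and Atf3 was lower (-0.97, edgeR adjusted p = 0.041). Without cells that held a keratin UMI 8 members were called higher and 0 lower, against 17.9% and 15.8% of 7419 genes, with Fos (2.10), Jun (1.83) and Fosb (1.21) among those higher. These cells kept the Langerhans or myeloid markers, which summed to 1424 and 2518 CPM, with Cd207 at 65.9 and 344 CPM and Cd74 at 836 and 1335 CPM. The part of those cells in the contrast was not tested. Fos, Fosl2, Jund and Maff stayed higher in DETCs under every alternative run for this contrast.

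Other genes of the pathway were called in both directions between classes. The counts are to be read against the 16.5% of all genes called higher and 15.9% called lower in DETCs than in alpha-beta T cells, and some lie near those shares. Of the 19 other immediate early genes, 5 were higher and 6 lower in DETCs than in alpha-beta T cells. Egr1, a zinc finger factor induced through SRF, was higher by 1.22 and Nr4a2, an orphan nuclear receptor, by 1.5, whereas Klf2, which marks resting circulating T cells (-2.92), and Dusp2, a phosphatase of MAP kinases (-3.46), were lower. Of the 17 kinases and SRF module genes tested, 3 were higher (Map2k1, Map2k2 and Map3k8) and 2 lower (Elk3 and Map3k1). Each of the 5 partner factors was called lower in DETCs, Nfatc1 (-1.58), Nfatc2 (-0.69), Nfatc3 (-0.90), Irf4 (-1.77) and Irf8 (-2.17). In DETCs, Nfatc1 stood at 5.59 and 5.83 CPM and Irf8 at 3.34 and 1.07 CPM. Both passed the low-count filter only through the other classes, so their calls carry no weight. Irf4, at 15.0 and 10.9 CPM in DETCs, and Dusp2, at 13.0 and 11.4 CPM, passed it partly through them. Of the 20 other bZIP factors tested, 6 were higher, among them Cebpb (1.48) and Nfil3 (1.17), and 3 were lower, among them Maf (-3.75) and Bach2 (-2.70). Bach2, at 2.59 and 1.55 CPM in DETCs, passed the filter only through the other classes as well. Against the CD3-low class, where 17.5% of all genes were higher and 17% lower, the counts were 11 higher and 4 lower of 19 immediate early genes, 2 and 4 of 17 kinases and SRF module genes, 0 and 3 of 5 partner factors, and 6 and 5 of 20 other bZIP factors. The limit given for Nfatc1, Irf8 and Bach2 holds for these counts too.

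Heat shock genes moved with the members between classes. Of 10 heat shock genes, 8 were higher in DETCs than in alpha-beta T cells, against 16.5% of all genes, and 8 were higher than in the CD3-low class, against 17.5%. The list summed to 11377 and 9127 CPM in DETCs against 5014 and 5388 CPM in alpha-beta T cells. To set the classes side by side at a like level of these genes, each cell was thinned to 2000 UMIs and placed in a low (0 to 12 heat shock UMIs), middle (13 to 22) or high (23 or more) bin, a step chosen after seeing the data. The low bin held 31.1% and 38.5% of DETCs and 78.9% and 75% of alpha-beta T cells. Within it, the log2 ratio of DETCs over alpha-beta T cells was 1.04 (0.87 to 1.22) and 0.89 (0.73 to 1.04) for Fos and 1.05 and 1.61 for Jun. The ratio of Fosb in the low bin was 0.05 (-0.39 to 0.52) and 0.04 (-0.38 to 0.49), intervals that span 0. The middle and high bins held between 16 and 33 alpha-beta T cells per library. In the isotype library the ratio of Fos was 1.36 in the middle bin and 0.60 in the high bin, with intervals above 0. In the Skint1 antibody library it was 0.05 and 0.20, and that of Jun -0.36 and -0.30, all with intervals that span 0. In the high bin Jund was lower in DETCs, at -0.34 (-0.65 to -0.007) and -0.41 (-0.72 to -0.08), and Junb was at -0.22 (-0.56 to 0.14) and 0.58 (0.12 to 1.08). The part of the heat shock genes in the class differences was not tested.

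Between treatments, DETC levels of the members differed little except for Atf3. Ratios are log2 of the Skint1 antibody level over the isotype level, with exact conditional binomial 95% intervals and no test. Of the 8 members with at least 50 CPM, 1 was lower by at least 0.32 on the log2 scale, the size used for counting, and 0 were higher, against 1.5% of the 2859 genes at that level lower and 0.21% higher. The median ratio was -0.13 over the 8 members and -0.03 over all 2859 genes. Atf3 was at 209 and 142 CPM, a log2 ratio of -0.55 (-0.63 to -0.48), and only 0.315% of the genes had a ratio as low or lower. Its ratio lay between -0.45 and -0.64 under the alternatives for cell filter, gate, depth and weight.

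Jun (-0.24, -0.27 to -0.20), Fosb (-0.20, -0.26 to -0.14) and Fosl2 (-0.16, -0.25 to -0.08) had ratios below 0 with intervals that exclude 0, yet none reached the size counted. Jun lay just below the middle 90% of all genes, which ran from -0.22 to 0.13. Fos (-0.026), Junb (0.016), Jund (0.030) and Maff (-0.10) lay within it. Batf, under 50 CPM, had a ratio of -0.17 (-0.32 to -0.01). The ratio of Fosl1, on 13 and 24 UMIs, was 0.53 (-0.50 to 1.63) and was not detectable as a difference at this depth.

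**Figure D2:**
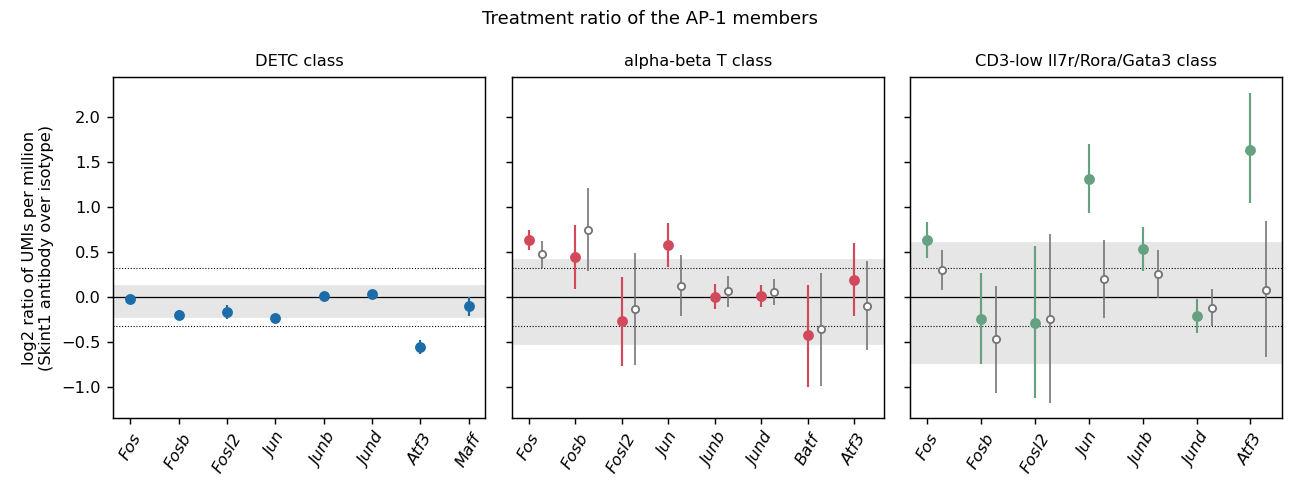
Ratio of the members' levels between libraries, as log2 of Skint1 antibody over isotype, in each class for members with at least 50 CPM. Filled points are the whole class and open points the alpha-beta T class without Trdc UMIs or the CD3-low class without keratin UMIs; bars are exact conditional binomial 95% intervals, the grey band holds the middle 90% of all genes at 50 CPM or more, and dotted lines mark 0.32 on either side of 0. Atf3 in DETCs (-0.55) lies below the band, and the open point of Jun in the CD3-low class (0.20) lies far below its filled point (1.31).

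The heat shock list was lower in DETCs of the Skint1 antibody library as well. All 10 ratios were below 0 (median -0.27), and 3 reached the size counted, namely Hsph1 (-0.83), Hspa1a (-0.57) and Hspa1b (-0.55). The high heat shock bin held 38% and 27.7% of thinned DETCs. From the low to the high bin, Fos went from 2027 to 5051 CPM among isotype cells and from 2277 to 5431 CPM among Skint1 antibody cells. Jun went from 373 to 1539 CPM and from 406 to 1370 CPM, and Atf3 from 80.6 to 330 CPM and from 64.9 to 222 CPM, so that all 3 members were higher where heat shock genes were higher. Compared within a bin, Jun was lower after Skint1 antibody in the high bin (-0.17, -0.23 to -0.10) but had ratios of 0.12 in the low bin and 0.06 in the middle bin, with intervals that span 0. Fos had ratios of 0.17 (0.11 to 0.22), -0.002 (-0.04 to 0.04) and 0.10 (0.07 to 0.14). Junb had 0.19 (0.11 to 0.27), 0.07 (0.005 to 0.14) and 0.09 (0.03 to 0.15), and Jund 0.16 (0.09 to 0.23), 0.02 (-0.04 to 0.08) and 0.09 (0.04 to 0.15). Fosb was below 0 in the middle bin (-0.28, -0.42 to -0.14). None of these reached the size counted. Atf3 stayed below 0 in all 3 bins, at -0.31 (-0.60 to -0.02), -0.16 (-0.36 to 0.04) and -0.57 (-0.73 to -0.42). The part of the heat shock genes in the treatment ratios was not tested beyond these values.

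**Figure D3:**
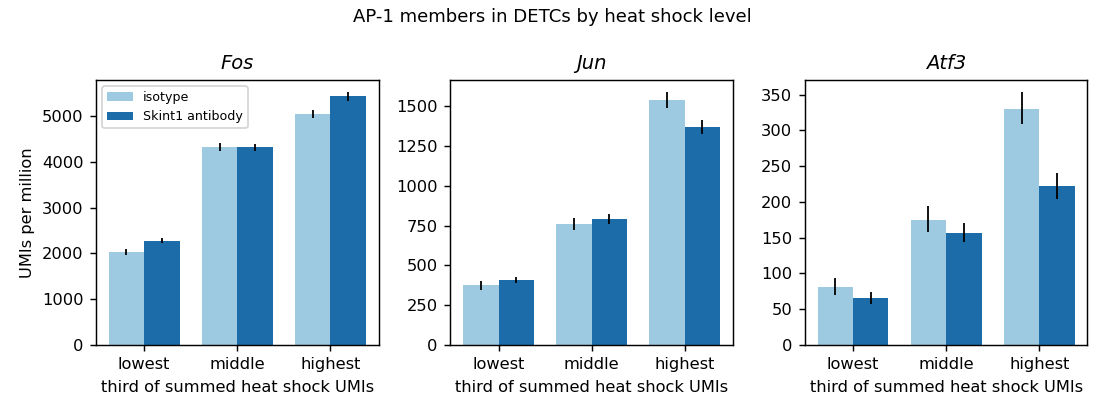
Level of Fos, Jun and Atf3 in DETCs thinned to 2000 UMIs, by bin of summed UMIs of 10 heat shock genes (lowest 0 to 12, middle 13 to 22, highest 23 or more). Bars are CPM in the isotype (light) and Skint1 antibody (dark) library and error lines the exact Poisson 95% interval. Each member rises over the bins in both libraries, and Atf3 in the highest bin stands at 330 and 222 CPM.

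Of the 28 genes at 50 CPM or more in 4 lists of other pathway genes, 1 was higher in DETCs after Skint1 antibody by the size counted (Egr1) and 1 lower (Nr4a3), against 0.21% and 1.5% of 2859 genes. None of the 8 other bZIP factors at 50 CPM or more reached the size counted in either direction, with ratios from -0.22 (Ddit3) to 0.07 (Cebpb). None of the 7 kinases and SRF module genes did, with ratios from -0.24 (Rps6ka3, a kinase that phosphorylates FOS) to 0.07 (Mapk3, encoding the MAP kinase ERK1). No partner factor reached 50 CPM. Of 13 other immediate early genes, Egr1 was higher (305 and 399 CPM, ratio 0.39) and Nr4a3 lower (79.3 and 62.5 CPM, ratio -0.34), and 9 others had intervals on 1 side of 0 without reaching that size. Of these, Ier2 (0.29), Ier3 (0.20), Zfp36 (0.12) and Btg2 (0.08) lay above 0, and Klf4 (-0.18), Nr4a2 (-0.12), Dusp5 (-0.12), Klf6 (-0.06) and Ier5 (-0.05) below. The median over the 13 was -0.03. Dusp1, the phosphatase that switches off MAP kinases, was at 898 and 900 CPM. Below 50 CPM, where no gene entered these counts, 7 of the 36 genes of the 4 lists with UMIs in both libraries had a ratio of that size with an interval on 1 side of 0, 2 higher and 5 lower. The same held for 2.45% (higher) and 3.51% (lower) of all 12423 such genes, most of which had fewer UMIs than the median gene of the lists below 50 CPM. Those lower were Batf3 (21 and 3 UMIs, ratio -3.16), the interferon regulatory factors Irf8 (49 and 20 UMIs, -1.64, -2.47 to -0.87) and Irf4 (-0.47, -0.75 to -0.19), Bach2 (-0.74) and the cAMP-responsive factor Crem (-0.46, -0.64 to -0.29). Those higher were Egr2 (0.43, 0.19 to 0.67) and Klf2 (0.40, 0.21 to 0.59). Among the 1683 such genes with at least 897 UMIs, the median of the list genes, 0.238% were higher and 1.54% lower. In that range lay 18 list genes, and of the 7 only Klf2 (360 and 606 UMIs) and Crem (551 and 510 UMIs) were among them.

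In the other classes the treatment ratios of several members were larger and less certain. In the alpha-beta T class 3 of 8 members were higher after Skint1 antibody by the size counted, against 7.93% of 2584 genes, and 1 was lower, against 15%. Those higher were Fos (ratio 0.64, 0.53 to 0.75), Jun (0.58, 0.33 to 0.83) and Fosb (0.45, 0.09 to 0.81). The 10 highest cells of the class held 34.1% and 25.7% of its Fos UMIs, 45.2% and 47.2% of its Jun UMIs and 48.7% and 37.3% of its Fosb UMIs. The intervals do not cover this spread between cells. Batf was lower (-0.43), with an interval that spans 0. Cells with 3 or more Trdc UMIs, 18 and 44 in number, carried Fos at 4221 and 4323 CPM, near the DETC level. Among alpha-beta T cells without a Trdc UMI (158 and 156 cells) Fos stood at 1000 and 1393 CPM (ratio 0.48, 0.33 to 0.63), Fosb at 106 and 177 CPM (0.75, 0.29 to 1.21) and Jun at 228 and 249 CPM (0.13, -0.21 to 0.47). Cells with a Cd4 UMI and no Cd8 UMI (50 and 51 cells) had Fos at 773 and 1663 CPM, and those with Cd8 and no Cd4 (25 and 17 cells) at 950 and 856 CPM.

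In the CD3-low class 4 of 7 members were higher by the size counted, against 12.5% of 2564 genes, and 0 were lower, against 24.6%. These were Atf3 (1.64), Jun (1.31), Fos (0.63) and Junb (0.54). Without cells that held a keratin UMI the ratios were 0.07 (-0.67 to 0.84) for Atf3, 0.20 (-0.23 to 0.64) for Jun, 0.30 (0.08 to 0.52) for Fos and 0.26 for Junb, none of which reached the size counted, and Fosb was then lower by that size (-0.47, -1.06 to 0.13). The 10 highest cells of the whole class held 92.7% of the Atf3 UMIs and 75% of the Jun UMIs in the Skint1 antibody library.

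The share of cells with a UMI was compared at equal depth, after thinning each cell to 2000 UMIs and leaving out shallower ones, which left 3410 and 4743 DETCs (134 and 202 left out), 190 and 196 alpha-beta T cells (7 and 17 left out) and 77 and 136 cells of the CD3-low class (5 and 3 left out). Jund was seen in 86.8% (85.7 to 88.0) and 87.2% of DETCs, Fos in 80.3% (78.9 to 81.6) and 79.7%, Junb in 75.4% and 77.2%, and Jun in 55% and 52.3%. The unthinned shares for Fos were 84.3% and 84.9% and those for Jun 66.8% and 62.7%. Fosb was seen in 33.9% and 31.2%, Fosl2 in 22.9% and 22.2%, Atf3 in 18.1% (16.8 to 19.4) and 14.5% (13.5 to 15.5), Maff in 14.1% and 13.6%, Batf in 8.06% and 7.00%, and Fosl1 in 0.117% and 0.190%. The intervals of the libraries overlapped for each of the 10 members except Atf3. For Fos the share was 58.9% and 63.8% in the alpha-beta T class and 46.8% and 50.7% in the CD3-low class, and for Jun 21.6% and 24.5%, then 16.9% and 25%. Jund, by contrast, was seen in 86.8% and 84.7% of alpha-beta T cells, with intervals that overlap those of DETCs. In the CD3-low class it was seen in 81.8% (71.4 to 89.7) and 71.3% (62.9 to 78.7), the latter interval below that of DETCs (86.2 to 88.2).

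Most DETCs held mRNA for both partners of a FOS-JUN dimer. UMIs of at least 1 FOS-type gene (Fos, Fosb, Fosl1, Fosl2) and at least 1 JUN-type gene (Jun, Junb, Jund) were found together in 81.6% (80.2 to 82.8) and 82.0% (80.9 to 83.1) of DETCs. JUN-type UMIs without FOS-type UMIs were found in 14.1% and 14.5%, the reverse in 1.61% and 1.37%, and neither in 2.73% and 2.09%. The share with both was 63.7% and 66.3% in the alpha-beta T class and 48.1% and 49.3% in the CD3-low class. The median DETC held UMIs of 4 of the 10 members in each library.

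Fos varied widely from cell to cell. At 2000 UMIs per cell, 19.7% of isotype DETCs had no Fos UMI, 32.6% had 10 or more and 9.91% had 20 or more, up to 52, around a median of 5. In the Skint1 antibody library the same shares were 20.3%, 31.3% and 10.3%, up to 65. Its variance was 9.15 and 9.69 times its mean, where counting alone gives about 1 and the gene in the middle of all those at 50 CPM or more gave 1.07 and 1.06. The same ratio was 4.66 and 3.97 for Jun, 3.41 and 2.87 for Atf3, 2.86 and 2.79 for Junb, 2.40 and 2.43 for Jund, 2.20 and 2.01 for Fosb and 1.23 and 1.21 for Fosl2. Both measures of unevenness depend on the level, the ratio of variance to mean growing with it and the share of UMIs in the highest 10% of cells growing as it falls, so neither ranks the members. In the isotype library these cells held 34.3% of the Fos UMIs, 48.3% of the Jun UMIs, 53.9% of the Fosb UMIs, 55.2% of the Fosl2 UMIs, 78.1% of the Maff UMIs and 80.3% of the Atf3 UMIs.

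**Figure D4:**
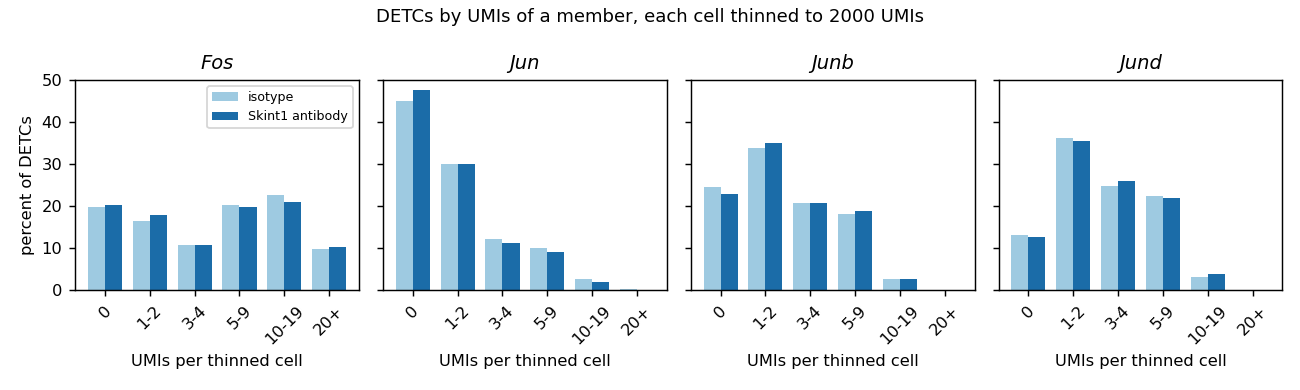
Share of DETCs (percent) by number of UMIs of Fos, Jun, Junb and Jund per cell, each cell thinned to 2000 UMIs, in the isotype (light) and Skint1 antibody (dark) library; the bins are of unequal width. Fos spreads over all bins, with 19.7% of isotype DETCs at 0 and 9.91% at 20 or more, whereas for Jun 45% were at 0 and 0.205% at 20 or more.

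The members were correlated with each other across DETCs at equal depth. Pearson's r of ln(1 + UMIs) was above 0 for all 28 pairs of the 8 members at 50 CPM or more in both libraries, with a median of 0.20 and 0.21, and each pair exceeded the 95th percentile of all 4085511 gene pairs at that level (0.0341 and 0.0294). The points are cells of 1 library each, so these values are descriptions without a p-value. The background pairs were not matched to the members in level. The value of r also grew with depth, its median over member pairs being 0.14 and 0.15 at 1000 UMIs and 0.24 and 0.26 at 3000 UMIs. The order of pairs given next therefore does not rank them at a like level. Fos and Junb gave the highest r (0.49 and 0.50), followed by Fos with Fosb (0.42 and 0.41), Jund (0.41 and 0.41) and Jun (0.36 and 0.40). Junb and Jund gave 0.30 and 0.31, and Jun and Junb 0.26 and 0.28. The lowest by the mean of both libraries were those of Atf3 with Maff (0.08 and 0.10) and of Fosl2 with Atf3 (0.08 and 0.10), next to Fosl2 with Jun (0.10 and 0.10). Every pair of the 28 stayed above 0 under each of the 7 alternatives, and Fos with Junb stayed the highest. Thinning all cells to 2000 UMIs left r of Fos with the original depth of the cell at -0.02 and -0.09.

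**Figure D5:**
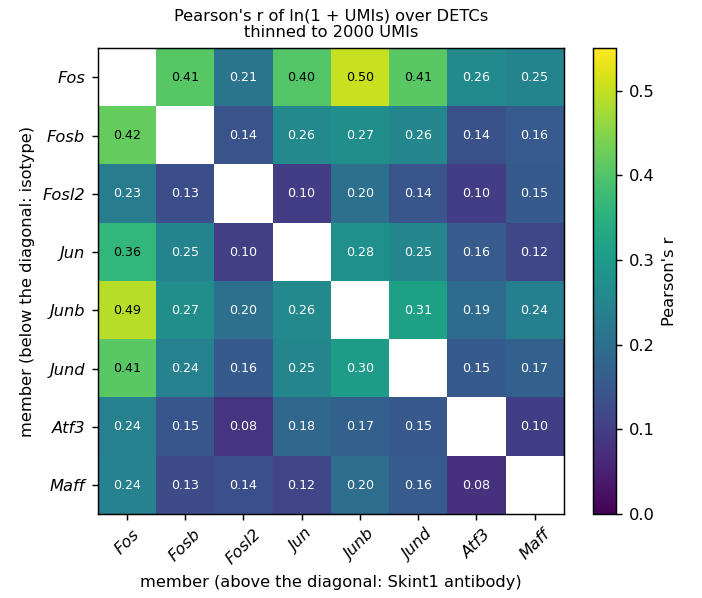
Pearson's r of ln(1 + UMIs) between the 8 members at 50 CPM or more over DETCs thinned to 2000 UMIs, 3410 cells of the isotype library below the diagonal and 4743 cells of the Skint1 antibody library above it. The highest value is that of Fos with Junb (0.49 and 0.50), and the lowest by the mean of both libraries are those of Atf3 with Maff and with Fosl2 (0.08 and 0.10 each).

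Outside the family, ordered by the mean r of both libraries, the genes most like Fos over DETCs were Rgs2, a regulator of G protein signalling (r = 0.58 and 0.55), Dusp1 (0.52 and 0.55) and Btg2, an antiproliferative immediate early gene (0.51 and 0.54). By that mean Rgs2 also came first for Junb (0.44 and 0.42), Jund (0.33 and 0.33) and Atf3 (0.19 and 0.22). Fosb was most like Egr1 (0.31 and 0.35), Jun like Btg2 (0.28 and 0.33) and then Dnajb1, an HSP40 co-chaperone (0.32 and 0.29), Fosl2 like Hist1h2bc (0.22 and 0.24) and Maff like H3f3b (0.25 and 0.26). Within a library the first gene could be another, as for Atf3, where Rgs2 came first in neither. At the other end, Vim, the intermediate filament vimentin, had the lowest mean r for 6 of the 8 members, -0.21 and -0.25 with Fos. The sum of the 19 other immediate early genes had r of 0.71 and 0.72 with Fos, 0.55 and 0.55 with Junb and 0.39 and 0.41 with Jun. The sum of the 10 heat shock genes had r of 0.41 and 0.42 with Fos and 0.41 and 0.36 with Jun, but 0.09 and 0.07 with Fosl2. With the percentage of mitochondrial UMIs, r lay between -0.08 and 0.03 for the 8 members.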

How the data were processed

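The authors ran Cell Ranger on an mm10 index and deposited its unfiltered matrices, so the values are raw UMI counts for all barcodes of 2 libraries. CPM are the counts of a gene in a class over all UMIs of that class in the same library. The total UMIs of DETCs are given above. Those of the alpha-beta T class were 800759 and 836438, and those of the CD3-low class 382921 and 659467. Of the kept cells, 428 and 678 fell in no class. The members and all gene lists, markers and class rules were chosen with earlier results of these data known. The named genes are the 10 members, 6 fixed lists (of which the cycling list is given in the closing section) and the 3 genes most like each member by r. Class contrasts used edgeR 4.0.16 in R 4.3.3 (quasi-likelihood test, TMM, filterByExpr, Benjamini-Hochberg over 7716 genes, 5% false discovery rate). DESeq2 1.42.0 was an alternative. The rest was run in Python (3.11.15) using scipy (1.17.1), numpy (2.4.6) and pandas (2.3.3). Levels have exact Poisson, ratios exact conditional binomial and shares exact Clopper-Pearson 95% intervals, all for counting error only. Treatments were not tested against each other, there being 1 library of each. Free RNA was taken from barcodes with 1 to 100 UMIs and bounded by Krt1, Krt5, Krt10, Krt14 and Krt15. No doublet caller was used, the gates and the upper gene limit remove part of the doublets, and an alternative left out the 5% deepest cells. The functions were tested on simulated data. Sequences are RefSeq's, and protein sequences were not used here. Alternatives varied the cell filters, gates, scaling, low-count filter, library block, thinning depth and measure of r. Those without keratin cells, the treatment ratios without Trdc cells and those by heat shock bin were chosen after seeing the data, the Trdc-free alpha-beta T class being also the narrow gate of the class contrast.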

Additional observations from a re-analysis of the deposited data

Results flagged for a closer look

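Some members had treatment ratios of opposite sign in DETCs and in another class, with counting intervals that exclude 0 on both sides; the difference was not tested, since each treatment has 1 library. Fos had a log2 ratio (Skint1 antibody over isotype) of -0.026 in DETCs, 0.64 in the alpha-beta T class and 0.63 in the CD3-low class. Fosb had -0.20 in DETCs and 0.45 in the alpha-beta T class. Jun had -0.24 in DETCs, 0.58 in the alpha-beta T class and 1.31 in the CD3-low class. Jund had 0.030 in DETCs and -0.21 in the CD3-low class. The DETC ratios of Fos and Jund lay within the middle 90% of all genes (-0.22 to 0.13), and that of Fos was 0.0029 relative to the median gene. Counting intervals also leave out the spread between cells, where the variance of Fos in DETCs was 9.15 and 9.69 times its mean. For Fos and Jund, the sign in DETCs is therefore not a difference between treatments. Atf3 had -0.55 in DETCs and 1.64 in the CD3-low class. With cells that held a Trdc UMI left out of the alpha-beta T class, the ratios there were 0.48 for Fos, 0.75 for Fosb and 0.13 for Jun, the last with an interval that spans 0. With cells that held a keratin UMI left out of the CD3-low class, the ratio of Fos was 0.30, and those of Jun (0.20), Jund (-0.12) and Atf3 (0.07) had intervals that span 0.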

How the results depend on the processing

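The count of members whose DETC level differed between treatments by at least 0.32 on the log2 scale was 1 lower and 0 higher under each of the 10 alternatives. Between DETCs and the alpha-beta T class, 5 to 7 members were called higher and 1 lower, where 8.74% to 20.8% of all genes were higher and 6.82% to 17.1% lower. Junb passed under library totals, no filter, no upper gene limit, narrow gates, without the 5% deepest cells and without keratin UMIs, Jund under library totals and Atf3 without a filter. The contrast with the CD3-low class depended on which cells the class held. With at most 5% mitochondrial UMIs, 4 members were called higher and 1 (Atf3) lower, against 8.42% and 9% of 5047 genes. Jun turned to -0.39 in that setting, where the 5 keratin genes of the class summed to 0 and 11053 CPM. With no upper limit on genes, 3 were called lower (Jun, Atf3 and Fosl1), against 34.2% of 10667 genes lower and 25% higher, Jun at -1.08, and Fosb turned to -0.15. Fosl1 had 13 and 24 UMIs in DETCs under the main limits and was too low for the main fit. It passed the low-count filter only with the cells added in that setting, so its call carries no weight. With the narrow gates (no Trdc UMI in the alpha-beta T class, no Trac, Trdc or CD3 UMI in the CD3-low class) 1 was called lower (Atf3), against 10.2% of 7054 genes, at 1699 and 9488 keratin CPM. Without keratin UMIs, an alternative chosen after seeing the data, Atf3 turned from -0.05 to 1.02. Thinning to 1000 UMIs moved the median r over member pairs to 0.14 and 0.15. The share of DETCs with both FOS-type and JUN-type UMIs was 70.3% and 69.5% at 1000 UMIs, 86.3% and 86.2% at 3000 UMIs, 87.5% and 87.8% unthinned, and 79.9% in the isotype library at 5% mitochondrial UMIs. These shares follow the depth and hold only at the depth given. No paired analysis was possible because each treatment has 1 library. The class contrasts have the library as their block. Without the block 5 members were higher and 1 lower against the alpha-beta T class, where 17.6% and 17.1% of all genes were. Against the CD3-low class 7 members were then higher and 0 lower, where 18% and 17.9% of all genes were. Over all genes, 1275 were called higher and 1227 lower against the alpha-beta T class, but 712 and 830 with DESeq2 and 606 and 563 at 5% mitochondrial UMIs. Against the CD3-low class 1353 and 1315 were called, but 425 and 454 at 5% mitochondrial UMIs, 2670 and 3646 with no upper limit on genes and 844 and 720 with the narrow gates. The causes of these changes were not tested. The treatment ratio of Fos in DETCs changed sign with no upper limit on genes (0.011) and relative to the median gene (0.0029), and at 5% mitochondrial UMIs those of Junb (-0.052) and Jund (-0.00099) did. Few UMIs in the small classes left wide intervals there.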

Other observations

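Few DETCs were cycling by 2 or more of 10 cycling genes at 2000 UMIs, namely 43 and 46 cells (isotype, then Skint1 antibody). Fos was lower in them than in other DETCs, at 2767 against 3899 CPM (log2 ratio -0.49, -0.68 to -0.31) and 2207 against 3857 CPM (-0.81, -1.01 to -0.61). Jund (-0.78 and -0.62) and Jun (-0.72 and -0.48) were lower in both libraries, whereas Junb was at -0.14 (-0.43 to 0.14) and -0.63 (-0.96 to -0.31). These intervals cover counting error over few cells, and no test was made. Summed over DETCs, the cycling list stood at 97.9 and 82.2 CPM, and no gene of it reached 50 CPM. Between classes, 3 of the 4 cycling genes tested were lower in DETCs than in the alpha-beta T class and 0 higher, against 15.9% and 16.5% of all genes. Against the CD3-low class 0 were lower and 1 higher (Birc5, at 0 UMIs in that class in both libraries), against 17% and 17.5% of all genes. Birc5 stood at 6.68 and 5.13 CPM in DETCs and at 17.5 and 35.9 CPM in the alpha-beta T class. It passed the low-count filter only through the alpha-beta T class, so little can be read from its calls. Most genes of the list were too low to be tested.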
